A study of Homo sapiens with 7 samples.

Results

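The genes that encode the D-type cyclins and their kinases (CCND1, CCND2, CCND3, CDK4 and CDK6) were examined for peaks of Rb, the retinoblastoma protein. The 5 genes were chosen by name among 19962 protein-coding genes. A peak belonged to a gene as a promoter peak when it overlapped a window that begins 2000 bp before, and ends 500 bp after, the transcription start site (TSS) of any of its transcripts. It belonged as a distal peak when it lay outside these windows, within 50 kb of the gene, and the gene's TSS was the nearest coding one to its summit. Such a peak could lie in the promoter window of another gene. Of 21231 peaks listed over 7 libraries, 12 belonged to the 5 genes.

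Rb was profiled by CUT&RUN, in which an antibody directs a nuclease to release DNA fragments around a bound protein. ZR-75-1, the line used, is established from a breast cancer that expresses the oestrogen receptor. Parental cells were cultured for 4 days with DMSO or with 500 nM of the CDK4/6 inhibitor palbociclib, with 2 Rb libraries for each treatment. RB1 knockout (KO) cells, which came from single-cell-sorted CRISPR clones, gave 1 Rb library with DMSO and 1 with palbociclib, and parental cells with palbociclib gave 1 library with a non-targeting IgG2a antibody. Per the study's reporting, the replicates were biological ones within an experiment performed a single time.

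D-type cyclins bind CDK4 or CDK6, and the active kinase phosphorylates Rb and its relatives. Hypophosphorylated Rb stays on E2F transcription factors at promoters and holds back genes of the cell cycle, whereas phosphorylated Rb lets go of them. In luminal breast cancer cells cyclin D1 is a known target of the oestrogen receptor, and CDK4/6 inhibitors are used against this disease.

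Palbociclib libraries listed Rb peaks at 3 of these 5 genes, and DMSO libraries listed none. Among all protein-coding genes, 53.7% had no peak in any Rb library and 2.83% had a promoter region shared by the DMSO libraries. In the single lists of DMSO libraries 1 and 2, 5.22% and 4.28% had a promoter peak. These shares are not counted exactly as the counts of the 5 genes are. With 5 genes, neither count sets the group apart from all genes. CCND3 and CDK4 each carried a peak over the start of the gene in both palbociclib libraries. CCND1, which encodes cyclin D1, carried a pair of peaks upstream of its promoter window in both libraries, while its promoter-class peaks were weaker and unshared. CCND2 and CDK6 carried no Rb peak in any library.

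The sequences around the summits of the 4 regions listed in both palbociclib libraries are shown because they are the regions assigned to these genes in both replicates. Each is 201 bases of hg38, centred on the summit with the higher −log10 q and written 5′ to 3′ on the strand of the gene. Capitals mark GGGCGG, the core of the site bound by SP and KLF factors, or its reverse complement CCGCCC.
CCND1, 4.4 kb upstream, chr11:69636641-69636841, plus strand: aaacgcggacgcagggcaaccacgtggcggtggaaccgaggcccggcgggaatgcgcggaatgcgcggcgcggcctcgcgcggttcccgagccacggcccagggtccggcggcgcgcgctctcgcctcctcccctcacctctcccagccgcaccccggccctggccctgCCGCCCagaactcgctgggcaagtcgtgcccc
CCND1, 2.9 kb upstream, chr11:69638205-69638405, plus strand: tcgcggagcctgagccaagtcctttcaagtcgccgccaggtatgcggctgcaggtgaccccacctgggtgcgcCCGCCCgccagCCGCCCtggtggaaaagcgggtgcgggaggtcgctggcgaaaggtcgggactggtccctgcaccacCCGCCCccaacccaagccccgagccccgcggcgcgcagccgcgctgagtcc
CCND3, over the start, chr6:41941597-41941797, minus strand: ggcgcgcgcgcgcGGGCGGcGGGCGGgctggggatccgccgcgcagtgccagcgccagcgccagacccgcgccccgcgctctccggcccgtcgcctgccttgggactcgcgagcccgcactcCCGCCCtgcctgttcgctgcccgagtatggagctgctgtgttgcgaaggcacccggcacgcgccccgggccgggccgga
CDK4, over the start, chr12:57752152-57752352, minus strand: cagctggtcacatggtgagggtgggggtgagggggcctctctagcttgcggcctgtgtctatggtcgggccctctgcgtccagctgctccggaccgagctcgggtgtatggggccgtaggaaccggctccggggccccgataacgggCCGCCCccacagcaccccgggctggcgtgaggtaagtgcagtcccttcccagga

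Base composition was high in G and C in all 4 windows. GC content was 76.6% and 73.1% in the CCND1 windows, 80.1% in the CCND3 window and 69.2% in the CDK4 window. The median was 70.6% over 6336 promoter windows and 69.7% over 308 non-promoter windows built in the same way at all regions shared by the palbociclib libraries. Searching both strands for 10 motifs found GGGCGG alone: 1 match at the CCND1 region 4.4 kb upstream, 3 at the region 2.9 kb upstream, 3 at CCND3 and 1 at CDK4. Of the shared windows, 70.6% at promoters and 70.1% elsewhere held this motif, so its presence did not set the 4 windows apart. No window held the E2F letters TTTGGCGC, TTTCCCGC, TTTGCCGC or TTTCGCGC, which 5.86% of the shared promoter windows and 4.87% of the shared non-promoter windows held. None held CRE (TGACGTCA), AP-1 (TGAGTCA or TGACTCA), NFY (CCAAT), ETS (CCGGAAGT), FOXA (TGTTTAC or TGTTTGC) or CHR (TTTGAA or TTTCGAA) letters, the NRF1 motif or an oestrogen response element with at most 1 mismatch. These are matches of letters and not measured binding of any factor.

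The libraries differed in how many peaks they listed. DMSO libraries held 996 and 816 peaks and palbociclib libraries 8399 and 8256. RB1 KO libraries held 65 with DMSO and 51 with palbociclib, of which 4 and 5 lay on chromosomes 1 to 22 and X, and the IgG2a library held 2648. The lowest local background, in fragments per base, scales with sequencing depth and was 0.571 and 0.465 in the DMSO libraries against 0.516 and 0.549 in the palbociclib libraries, so these ranges overlapped.

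Peaks at the 5 genes numbered 0 and 0 in the DMSO libraries and 5 and 6 in the palbociclib libraries, a mean of 5.5 ± 0.707 (SD, n = 2). They covered 3016 and 2667 bp with palbociclib and no bases with DMSO. Treatments did not overlap on either measure, nor did the lengths of the full lists. These peaks made up 0.0595% and 0.0727% of the palbociclib lists, so the contrast does not set the 5 genes apart. The two-sided exact permutation test gave p = 0.333 for both measures, the smallest value that n = 2 against n = 2 allows. The labels do not say that libraries of equal replicate number were paired. With that number taken as a block all the same, the paired test by exact sign flips gave p = 0.5, also its smallest. RB1 KO libraries listed 0 and 0 such peaks, and the IgG2a library listed 1, at CCND2. The lowest −log10 p in the RB1 KO lists was 7.06 with DMSO and 6.33 with palbociclib. The unshared CCND1 and CCND3 peaks had −log10 p of 5.73 to 6.67, below the lowest value of at least 1 of these lists. Their absence there therefore says little. With all parental lists cut to equal length, the 816 peaks of highest −log10 q in each, none of the 5 genes had a peak in any parental library.

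A promoter region shared by both palbociclib libraries was present at 2 of the 5 genes, against 34.5% of all protein-coding genes. When a promoter peak was asked for in each palbociclib library without overlap between them, a rule added after the data were seen, CCND1 joined them to make 3 of 5, against 34.9%. At DMSO 0 of 5 had a shared promoter region, against 2.83%. The RB1 KO lists gave 0 of 5 against 0.01%, and the IgG2a list gave 0 of 5 against 1.95%. A shared distal region with palbociclib was present at 1 of 5 genes, CCND1, against 2.32%. That share also counts regions in the promoter window of another gene, whereas the CCND1 regions lay in no promoter window. With 5 genes, none of these shares separates the group from other genes.

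**Figure D1:**
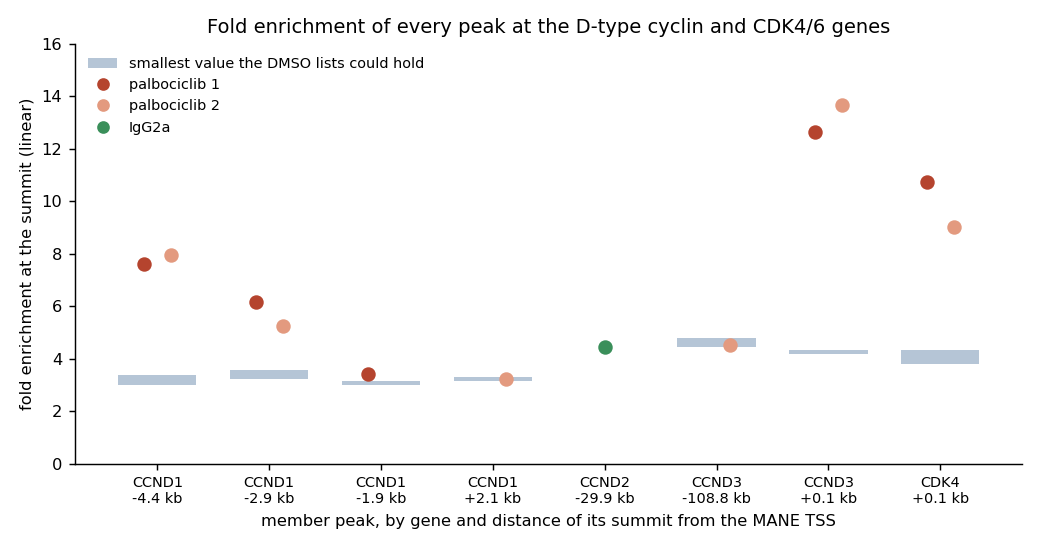
Fold enrichment (linear axis) of each peak at the 5 genes, by gene and summit distance from the main (MANE) TSS; points are single libraries and blue bands span the smallest fold enrichment that the DMSO lists could have held at the same local background. CCND3 and CDK4 points reach 13.7 and 10.7, well above the bands, whereas the CCND1 peaks near or inside the gene lie close to them.

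CCND1 had the most peaks of the 5 genes. It lies on the plus strand of chromosome 11 at chr11:69641156-69654474, and its main TSS is the first base of that interval. Its strongest region, chr11:69636422-69637159, was intergenic, with a summit 4415 bp upstream of the TSS in both palbociclib libraries, at the same base. Fold enrichment, the authors' ratio of fragments to local background at the summit with the same constant added to each, was 7.63 and 7.94. That constant lowers the ratio more where the local background is low. These summits held 41 and 45 fragments and the peaks spanned 736 and 576 bp. At the same local background the DMSO lists could have held a peak from a fold enrichment of 3.0 to 3.36, so signal of the palbociclib size would have been listed there.

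The region next to it, chr11:69638196-69638437, was also intergenic, with summits 2851 and 2797 bp upstream of the TSS. Fold enrichment was 6.15 and 5.24 over 29 and 24 fragments, and widths were 242 and 239 bp. Both palbociclib values exceeded the 3.21 to 3.58 that the DMSO lists could have held. A gap of 2719 bp lay between the nearer edge of this region and the gene, so it fell just beyond the promoter window. Of all protein-coding genes, 34 (0.17%) had 2 or more shared distal regions with palbociclib, and CCND1 was among them with 2. That cutoff equals the number at CCND1 and was not planned beforehand, so the share does not set CCND1 apart. The count of 34 genes can include regions in the promoter window of another gene.

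Both promoter-class peaks of CCND1 were listed once. Palbociclib library 1 alone listed chr11:69639091-69639340, with a summit 1868 bp upstream of the TSS, a fold enrichment of 3.42 and 19 fragments. Palbociclib library 2 alone listed chr11:69643212-69643375, in an intron, with a summit 2093 bp downstream of the main TSS and 463 bp from an inner TSS. Its fold enrichment of 3.24 over 18 fragments lay between the smallest values the lists of DMSO libraries 1 and 2 could have held, 3.13 and 3.32. Scaled to the lowest background of DMSO library 1 it made 18.7 fragments, where 18 were needed. Its absence from either DMSO list therefore says little. For the peak 1868 bp upstream the smallest values were 2.98 and 3.17. In DMSO library 2 it scaled to 17.1 fragments where 16 were needed, so its absence there says little too. No peak covered the main TSS of CCND1 in any library.

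Local background was high at CCND1. At the region 4.4 kb upstream it stood at 8.74 and 8.72 times the lowest background of palbociclib libraries 1 and 2. Over all peaks within 1 Mb of the gene the median was 2.88 and 3.0 times the median of all peaks in those lists. For CCND3 the same ratio was 0.667 and 0.452, and for CDK4 it was 1.14 and 1.00. Ranked by fold enrichment the region 4.4 kb upstream stood at the 57.6th percentile of the palbociclib lists, and ranked by fragments at the 89.1st. For the region 2.9 kb upstream these percentiles were 36.4 and 72.7, whereas for CCND3 they were 82.0 and 80.6 and for CDK4 70.2 and 73.0. The part of the local background in the fold enrichment of these regions was not tested beyond this ranking.

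**Figure D2:**
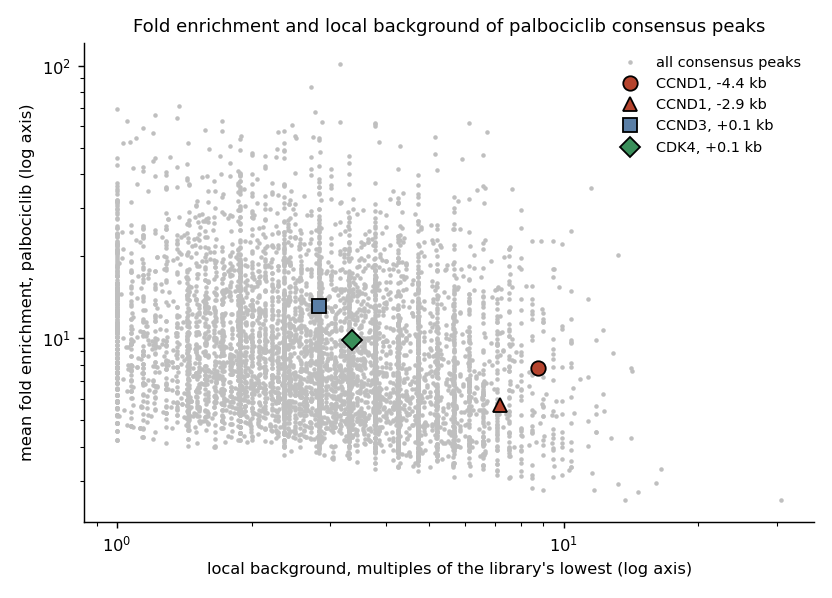
Mean fold enrichment against local background, as multiples of the lowest background of each library, for all 6644 regions shared by the palbociclib libraries (grey, both axes log). The CCND1 regions lie to the right at 8.73 and 7.19 times the lowest background, and the CCND3 and CDK4 regions lie near the middle at 2.83 and 3.36.

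In MCF7 cells, and with abemaciclib, the study disrupted enhancers that loop to the CCND1 promoter. The sources used here give no coordinates for them, and the CRISPR guide sequences that the study prints were not placed on the genome. The following counts therefore do not test those elements. All peaks from 600 kb upstream of the gene to 50 kb downstream were counted, whichever gene was nearest. Palbociclib libraries listed 7 and 5 peaks there, the DMSO and RB1 KO libraries 0 each, and the IgG2a library 3. None lay further upstream than the region at 4.4 kb in both palbociclib libraries. Palbociclib library 1 alone listed chr11:69048911-69049082, with a fold enrichment of 3.61 over 9 fragments, and chr11:69443081-69443623, with 2.91 over 16 fragments. Just past the 3′ end of the gene a shared region spanned chr11:69654546-69655220, starting 72 and 106 bp beyond it in libraries 1 and 2, with a fold enrichment of 5.58 and 6.19. It fell outside the rule because the TSS of LTO1 was nearest to its summits, which lay in an intron of that gene. Further downstream a shared region over the LTO1 start, chr11:69675151-69675659, had a fold enrichment of 2.90 and 3.53 and overlapped an IgG2a peak of 4.88. IgG2a listed a peak 53666 bp upstream of the CCND1 TSS, outside the 50 kb limit, with a fold enrichment of 4.63.

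CCND2, which encodes cyclin D2, lies at chr12:4269771-4305353 on the plus strand and had no Rb peak within the rule in any of the 6 Rb libraries. Its single listed peak was in the IgG2a library, chr12:4243801-4243932, intergenic and 25905 bp from the nearest CCND2 TSS, with a fold enrichment of 4.44 over 10 fragments. In that list 3.85% of all protein-coding genes had a distal peak. The nearest region shared by the palbociclib libraries lay 15343 bp from the gene, over the start of TIGAR, with a fold enrichment of 8.85 and 8.97.

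CCND3, which encodes cyclin D3, had the highest fold enrichment of the 5 genes. The gene runs over chr6:41934934-42050357 on the minus strand, and its shared region was chr6:41940832-41941941. Summits lay 85 and 111 bp downstream of the main TSS, within the 5′ UTR. Fold enrichment was 12.6 and 13.7, with 30 and 34 fragments and widths of 1110 and 934 bp. Both values were far from the 4.19 to 4.33 that the DMSO lists could have held. The mean of 13.1 ± 0.720 (SD, n = 2) stood at the 75.5th percentile of the 6870 protein-coding genes ranked by their best promoter peak, for which the median was 8.46.

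A further CCND3 peak was listed in palbociclib library 2 alone, chr6:42050542-42050776, near the start of the longest transcripts. Its summit lay 28 bp from the TSS of TAF8, a subunit of the general transcription factor TFIID, and the peak overlapped the promoter windows of both genes. Fold enrichment was 4.52 over 6 fragments. The DMSO lists could have held a peak from 4.45 and 4.78, so for DMSO 2 a peak of this size could not have been listed.

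CDK4, the kinase partner of all the D-type cyclins, lies on the minus strand at chr12:57747727-57756013. Its shared region, chr12:57751943-57752620, covered the main TSS, with summits 58 and 135 bp downstream of it in the 5′ UTR. Fold enrichment was 10.7 and 9.01, with 28 and 25 fragments and widths of 678 and 519 bp. DMSO lists could have held a peak from 3.82 to 4.34. The mean of 9.88 ± 1.22 (SD, n = 2) stood at the 60.3rd percentile of genes with a promoter peak. CCND1 is not among those genes, and the mean of its unshared promoter peaks, which lie at different sites, would stand at the 0.262nd. Local background there was 9.39 and 8.87 times the lowest of palbociclib libraries 1 and 2. Ranked by fragments among all peaks of those lists, they stood at the 56.7th and 52.2nd percentile.

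CDK6, the other kinase partner, spans chr7:92604921-92836573 on the minus strand and had no peak within the rule in any of the 7 libraries. The nearest shared palbociclib region lay 14527 bp beyond its 3′ end, over the start of FAM133B. There the fold enrichment was 15.1 and 12.3 with palbociclib and 5.44 and 5.85 with DMSO, so the DMSO libraries did list Rb peaks in this neighbourhood. METTL1 near CDK4 likewise had a peak in DMSO library 1, at a fold enrichment of 5.31, against 13.9 and 14.6 with palbociclib.

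**Figure D3:**
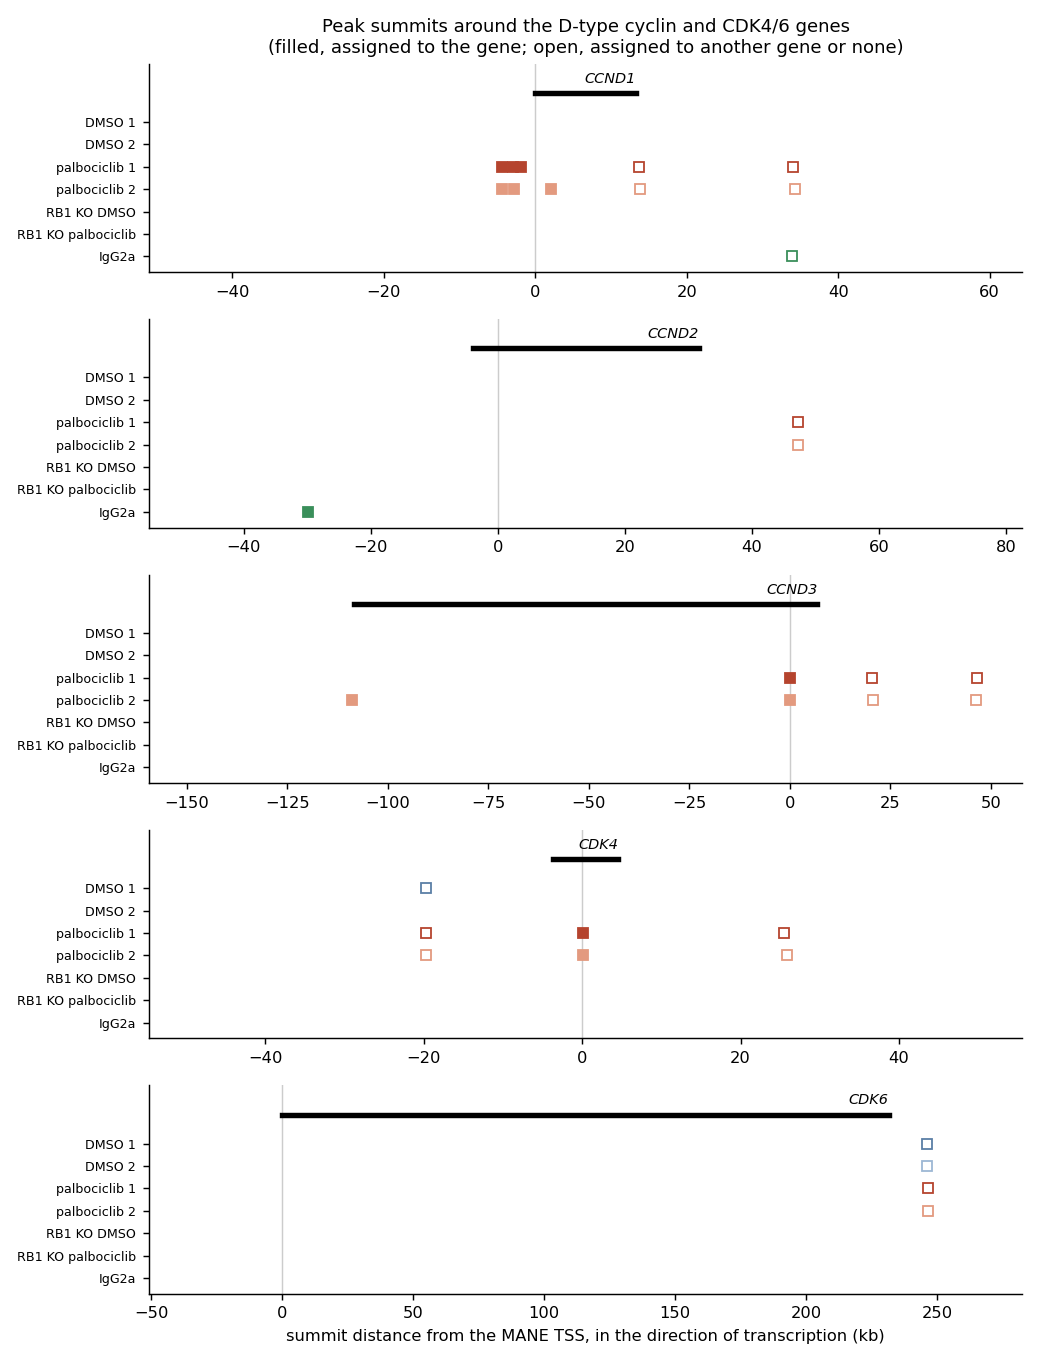
Peak summits by library around the 5 genes, by distance from the main TSS in kb in the direction of transcription, with the gene drawn as a black bar. Filled squares belong to the gene by the rule and open squares do not; DMSO squares appear only as open ones, at METTL1 near CDK4 and at FAM133B near CDK6.

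Replicates placed these regions alike. Summits of the 2 palbociclib libraries differed by 0 and 54 bp at the CCND1 regions, 26 bp at CCND3 and 77 bp at CDK4, against a median of 55 bp and a 90th percentile of 202 bp over shared regions. The larger fold enrichment exceeded the smaller by a factor of 1.04 and 1.17 at CCND1, 1.08 at CCND3 and 1.19 at CDK4, against a median of 1.21. Order by fold enrichment was CCND3, CDK4, CCND1 at 4.4 kb and CCND1 at 2.9 kb in both libraries, and the replicate values of these regions did not overlap. By fragments over the lowest background of each library the order turned: CCND1 at 4.4 kb came first with a mean of 80.7 ± 1.73 (SD, n = 2), before CCND3 with 60.0 ± 2.65, and CCND1 at 2.9 kb (49.97 ± 8.86) and CDK4 (49.91 ± 6.20) did not differ beyond their spread.

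**Figure D4:**
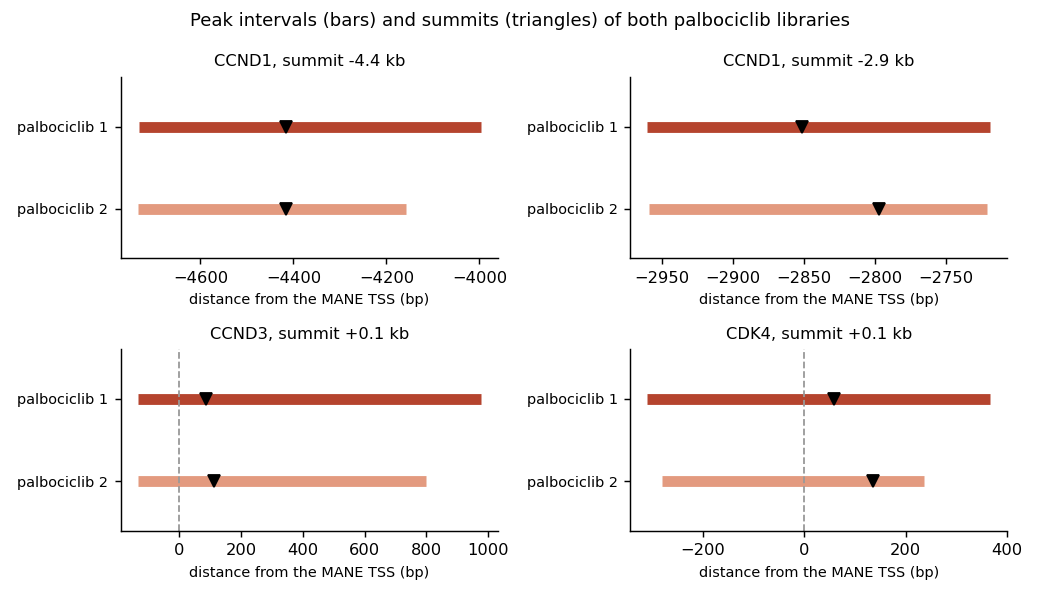
Peak intervals (bars) and summits (triangles) of both palbociclib libraries at the 4 shared regions, in bp from the main TSS (dashed line where it is covered). The CCND3 and CDK4 peaks cover the TSS, and the summits at the CCND1 region 4.4 kb upstream coincide at 4415 bp.

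RefSeq promoter sequences (GRCh38.p14, 250 bases before to 50 after a start) were matched for CCND3, CDK4 and CDK6. The CDK4 promoter and the CCND3 promoter at the main TSS both held GGGCGG, the latter also CCAAT. Of the 2 CDK6 promoters 1 held GGGCGG. Over all 34961 RefSeq promoters 45.0% held GGGCGG and 34.6% held CCAAT. Presence of these letters did not separate CDK6, which had no peak, from CCND3 and CDK4.

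Genes that act on the cyclin D-CDK4/6 step were compared by a list of 29, of which 16 had a shared promoter region with palbociclib and 4 with DMSO, against 34.5% and 2.83% of all protein-coding genes. The groups within it are small and were not tested against that share. Among the INK4 and CIP/KIP inhibitors, which block the kinases or bind their complexes, 6 of 7 had one with palbociclib. CDKN2C, which encodes the inhibitor p18, had a fold enrichment of 33.6 and 18.6 with palbociclib and 7.1 and 5.46 with DMSO. None of the 3 genes of the CDK-activating kinase had one. In kinase folding it was 2 of 3, including CDC37, the chaperone that hands CDK4 to HSP90, at 19.2 and 25.2 with palbociclib and 12.1 and 9.77 with DMSO.

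Of the substrates, 2 of 3 had a shared promoter region with palbociclib. RBL1, which encodes the Rb relative p107, had the highest values of the list at 39.9 and 46.0 with palbociclib and 15.4 and 13.8 with DMSO, and RB1 itself had 5.13 and 6.30 with palbociclib. For cyclin D turnover it was 1 of 5, and for activators of cyclin D transcription 5 of 8, beside the 34.5% of all genes. MYC, an activator, had 12.6 and 11.6 with palbociclib and 7.27 and 5.48 with DMSO. So regulators with Rb peaks in both DMSO libraries existed in the same lists in which none of the 5 genes had one. Only 2.83% of all protein-coding genes had a promoter region shared by the DMSO libraries, so this contrast does not set the 5 genes apart.

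Of the other cyclin genes, 10 of 23 had a shared promoter region with palbociclib, and of the other CDK genes 11 of 19, beside 34.5% of all protein-coding genes. In the IgG2a list 4 of these 42 genes had a promoter peak, against 1.95% of all protein-coding genes. CCNB1 and CDK13 were among these 4 and also among the genes with a shared region. CCNE2, which encodes cyclin E2, stood highest at 51.8 and 57.0 with palbociclib and 23.3 and 14.1 with DMSO. CCNE1, which encodes cyclin E1, had 25.4 and 30.0 with palbociclib and a DMSO peak of 6.09 in library 2 alone. CDK10 had 29.2 and 24.8, with a DMSO peak of 6.52 in library 1 alone. CCNF, which encodes cyclin F, had 29.4 and 22.2 with palbociclib and 5.02 and 7.15 with DMSO. These 4 genes were named for their high values. Of the 21 other cyclin and CDK genes with a shared region, 6 had a higher mean than CCND3 and 15 a lower one, and 10 had a higher mean than CDK4 and 11 a lower one.

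**Figure D5:**
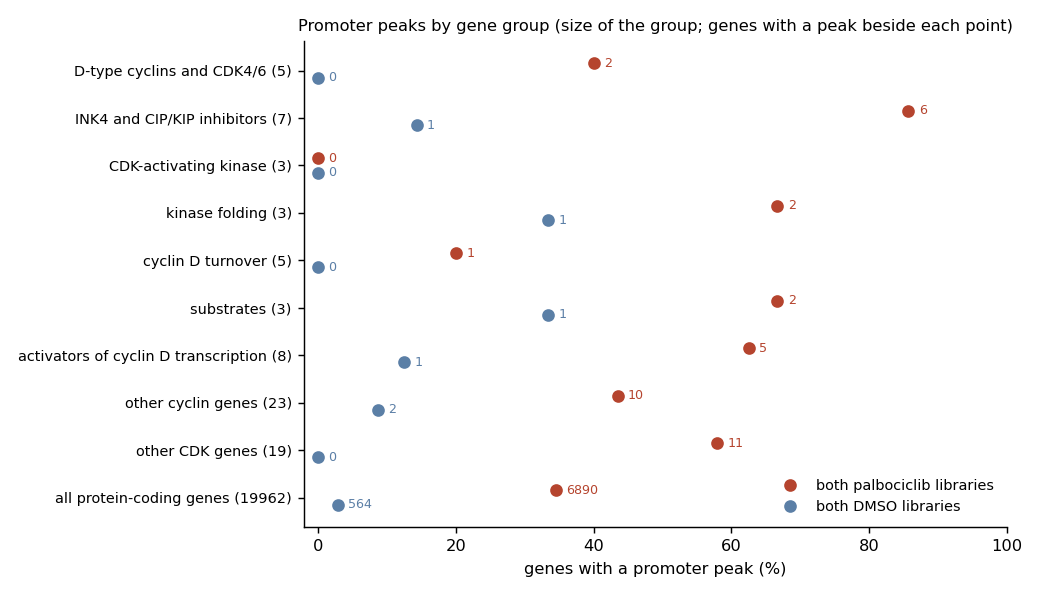
Percent of genes in each group with a promoter region shared by both libraries of a treatment, with the number of genes beside each point. The D-type cyclins and CDK4/6 stand at 2 of 5 with palbociclib and 0 with DMSO, against 6890 and 564 of 19962 protein-coding genes.

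The genes with the most similar fold enrichment over the 4 parental libraries were RRAS and SCAF1 for CCND3, which share 1 peak at 12.6 and 13.6 with palbociclib, and ATN1 (10.7 and 9.06) and TBC1D15 (10.7 and 9.02) for CDK4. None had a DMSO peak. Likeness was the Euclidean distance of log2 fold enrichment, with an unlisted peak set to 0, over 8731 candidate genes.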

How the data were processed

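Rb CUT&RUN of 7 ZR-75-1 libraries was analysed from the deposited peak lists. According to the study's methods, reads were trimmed with BBDuk 38.90 and aligned to hg38 with Bowtie2 2.3.4.1. The authors called each library's peaks separately, using MACS2 2.2.7.1 with an IgG control and a q cutoff of 0.05. Which IgG library served each list is not given in the sources used here, so the local background may include IgG signal, and overlap of Rb lists with the IgG2a list may be lowered by the calling itself. The deposited narrowPeak values are a score, the authors' fold enrichment (a ratio), a −log10 q and a −log10 p. Library totals were not used here, so the fragment pileup and local background at each summit were recovered from fold enrichment and p, to within 0.0055 of the listed −log10 p, and tested on simulated data (500 of 500 recovered). The smallest callable DMSO value is the lowest fold enrichment that would reach that list's lowest −log10 p at the palbociclib background (assumed equal in DMSO), scaled by the lowest background of each library.

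Peaks on chromosomes 1 to 22 and X were assigned with GENCODE 44. Shared regions overlapped by at least 1 bp in both libraries. Member peak numbers and covered bases were compared on log2(value + 1) by the exact permutation test, two-sided. The control used to call the IgG2a list is likewise not given, so it served as a background list. Named genes were the 5 genes, the 4 highest of each list, any with a shared DMSO promoter region, genes whose window a member peak overlaps, and the 2 most similar genes; neighbours of the 5 genes were named after their values were seen. Members and lists were chosen with earlier results of these data known. Python 3.11.15, numpy 2.4.6, pandas 2.3.3, scipy 1.17.1 and matplotlib 3.10.9 were used.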

Additional observations from a re-analysis of the deposited data

How the results depend on the processing

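Of the recomputed counts, shares and differences, 72 kept their direction or stayed within 1.5 times and 8 did not. Some of the 72 could not have moved. Palbociclib counts do not use the DMSO library left out, nor DMSO counts the palbociclib one. The replicate block leaves the differences as they are, and stricter cutoffs cannot add a DMSO region where none was listed. Of the single-peak percentiles and motif counts, 11 held and 5 moved: 4 CCND1 percentiles and the motifs at the unshared CCND1 peak 1.9 kb upstream, from 0 to 1 (CCAAT) over the whole peak. The counts of members with a shared promoter region (2), a shared distal region (1) and no DMSO region held at −log10 q or fold enrichment of at least 5, under other promoter windows, distal limits and transcript sets, at 50% reciprocal overlap, and at a common p cutoff added after seeing the data. The exception was lists of equal length, the best 816 peaks of each: members with a shared promoter region fell to 0, those with a shared distal region to 0 and the palbociclib minus DMSO difference in member peaks from 5.5 to 0, while the shared promoter share of all genes with palbociclib fell from 34.5% to 3.83% and the regulators from 16 to 1. The DMSO share of 2.83% was 1.61% at −log10 q of at least 5 and 4.28% to 5.22% when either DMSO library was left out, a single list then standing for the group. Leaving out either palbociclib library gave 3 members with a promoter peak, CCND1 being the third. The replicate block kept the differences at 5.5 peaks and 2841.5 bp, with p = 0.5 by the exact sign-flip permutation test. Pileup over the lowest background ranks peaks as unscaled pileup does, and both moved the CCND1 percentiles as given above. Absence from a list shows only that no peak passed that list's cutoff.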
